A study of Mus musculus with 3 samples.

Results

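The pluripotency network was examined as 30 genes in mouse embryonic stem cells that were wildtype, labelled as lacking Pcgf6, or labelled as lacking it and carrying Flag-tagged Pcgf6. The 30 genes were chosen by name: 4 core factors, 13 naive-state factors, 5 ligands, receptors and transducers of signalling, and 8 other stem cell genes. They are 30 of 20274 genes that could be named on the array, and all 30 were read by at least 1 probe. RNA was hybridised to 1-colour Agilent arrays, with 1 array in each of 3 groups. The wildtype group is unedited by its genotype label, the Pcgf6KO group had been edited at Pcgf6 with Cas9, and the group labelled Pcgf6KO+ Pcgf6_flag had in addition received Flag-tagged Pcgf6 by lentivirus. All 3 cultures are labelled male embryonic stem cells and were grown with serum and leukemia inhibitory factor (LIF) on fibroblast feeders arrested with mitomycin C. A source field of the labels reads muscle, while the cell type field reads embryonic stem cell, and the latter was followed. The sources used here do not say whether Pcgf6KO is 1 clone or a pool.

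Pluripotency in mouse embryonic stem cells rests on the transcription factors Oct4 (encoded by Pou5f1), Sox2 and Nanog, which bind each other's genes and many shared targets. A second layer of factors, among them Esrrb, the Klf proteins, Tbx3 and Tfcp2l1, holds cells in the naive state, and much of it is fed by LIF through its receptor and Stat3. Fgf4 signalling through ERK pushes in the opposite direction, towards the primed epiblast. Pcgf6 defines the Polycomb complex PRC1.6, which also holds the DNA-binding proteins Mga, Max and E2f6 and is known for silencing germline genes in these cells.

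A level below is log2 of the processed spot signal minus the 75th percentile of that array, and a difference is one level minus another. With 1 array a group no test was possible, no p-value is given, and a difference of 2-fold (1 log2 unit) was the size counted. Separate cultures would spread in a way that these arrays cannot show. The scanner software's own error was 10% of each bright signal, which gives 0.20 log2 units for a difference, and repeated spots of a probe differed within an array with a median SD of 0.06 to 0.07. Slide 1 held the wildtype and Pcgf6KO arrays and slide 2 the array labelled Pcgf6KO+ Pcgf6_flag, called the third array below, so that group and slide cannot be told apart for the third array. Pcgf6 itself, read by 1 probe, had levels of 1.87 in wildtype, 0.84 in Pcgf6KO and 0.43 on the third array. Because it was not higher on the third array, every direction given for that array rests on its label. Where the probe lies relative to the Cas9 edit and to the introduced sequence is unknown here, so its level does not check the labels. Levels on 1 array of different genes are not compared, since each probe has its own response.

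All 45 probes of the 30 genes were well above background on all 3 arrays, the defining stem cell genes Pou5f1, Nanog, Sox2, Sall4, Zfp42 and Esrrb included. In Pcgf6KO 1 gene, Gbx2, was at least 2-fold lower than in wildtype and 0 were at least 2-fold higher. The same held for 2.81% (lower) and 5.79% (higher) of the 14997 genes that both arrays measured. Most of the 30 genes are bright, with 29 at or above the median signal, and among the 8024 such genes the shares were 0.648% and 0.81%. The member median was -0.22, beside -0.03 over all genes and -0.07 over the bright ones. Of the 30 genes 21 had a difference below 0, while this held for 53.1% of all genes and for 62.3% of the bright ones. A count of 1 in 30 lies near the 2.81% of all genes and above the 0.648% of the bright ones. It rests on a single gene and says nothing particular about the network.

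The signal of fibroblast markers, which the feeder cells express, differed between the arrays. Of 30 fibroblast markers, 29 were well above background on at least 1 array: all 29 in wildtype, 26 in Pcgf6KO and 20 on the third array, with 0 at a signal of 0 on any of them. Their summed signal, in units of each array's 75th percentile, was 126 (wildtype), 73.5 (Pcgf6KO) and 58.4 (the third array). Their levels ran from -5.06 to 4.06 in wildtype, from -8.63 to 3.82 in Pcgf6KO and from -7.78 to 3.73 on the third array. The list median was -0.97 in Pcgf6KO and -2.64 on the third array against wildtype, with 13 of 26 and 14 of 20 measured markers at least 2-fold lower and 0 higher. Of all genes 2.81% and 4.81% were at least 2-fold lower in these comparisons. Both medians leave out markers not well above background on 1 of the arrays compared, so they rest on different markers. Of those left out, 3 in Pcgf6KO and 8 on the third array were at least 2-fold lower as a bound. Over the 12 markers at or above the median signal the third-array median was -1.17. Col3a1, a fibrillar collagen gene, differed by -2.48 and -5.29, and Mgp by -7.00 in Pcgf6KO. The Mgp signal there was 61.8, near 53.4, the lowest signal well above background on that array, so the size of its difference is uncertain. Fn1 and Sparc of the same list differed by only -0.09 and -0.22 in Pcgf6KO. These levels are of a whole culture, in which fewer cells of a type and less RNA per cell cannot be told apart. The part of the fibroblast marker signal in the differences of the 30 members was not tested.

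**Figure D1:**
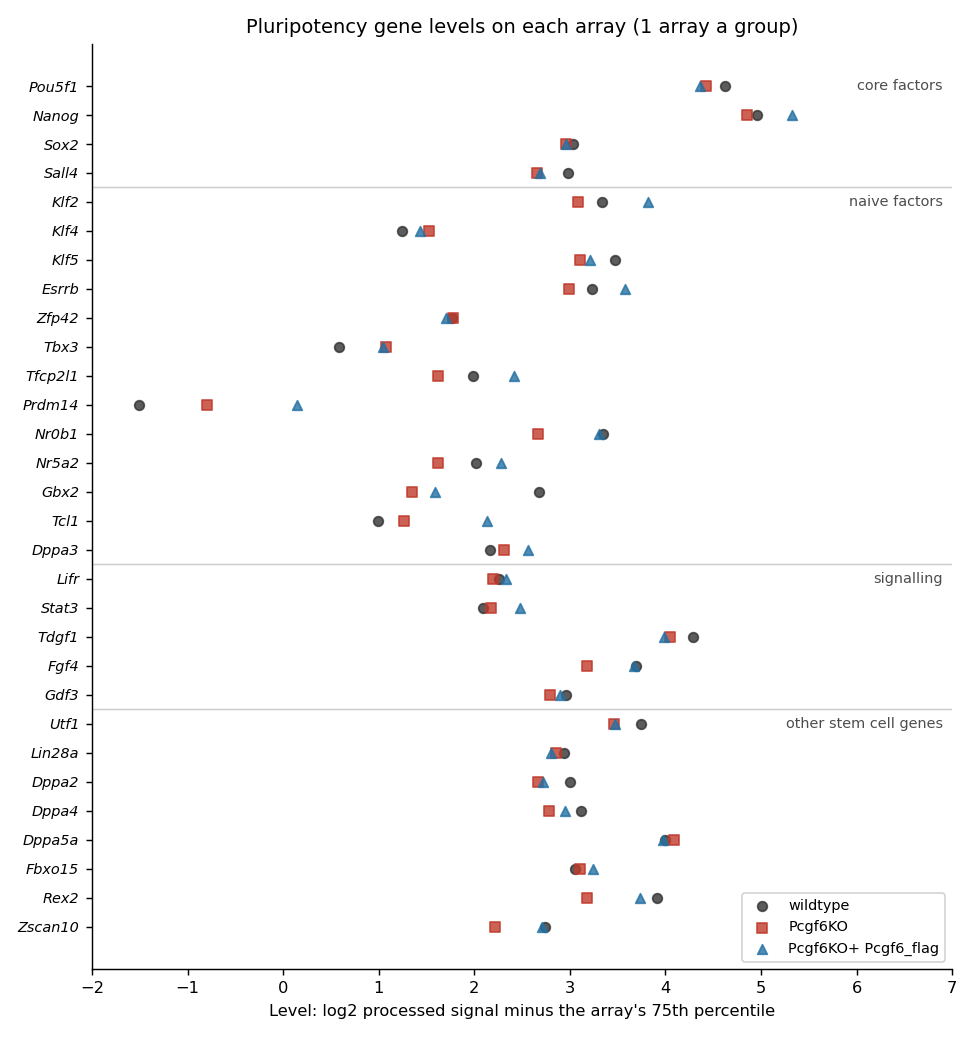
Levels (log2 units relative to the 75th percentile of each array, horizontal axis) of the 30 genes on the wildtype (circle), Pcgf6KO (square) and Pcgf6KO+ Pcgf6_flag (triangle) arrays, 1 array a group, arranged by role. Gbx2 lies at 2.68 in wildtype and at 1.35 in Pcgf6KO, Prdm14 is higher on each array from wildtype to the third, and the Pou5f1 levels lie between 4.37 and 4.62.

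The core factors were close to wildtype in Pcgf6KO. Pou5f1, the POU-domain factor Oct4, had levels of 4.62 (wildtype), 4.42 (Pcgf6KO) and 4.37 (the third array), with processed signals of 96253, 92003 and 95163. Sox2, its HMG-box partner, had levels of 3.03, 2.96 and 2.96 on the same arrays. The differences in Pcgf6KO were -0.20 for Pou5f1 and -0.07 for Sox2, no larger than the scanner error. Sox2 changed sign under quantile normalization and without scaling, so that no direction can be given for it.

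Nanog, the homeobox factor whose level varies from cell to cell, had levels of 4.96, 4.85 and 5.33, with signals of 121496, 124112 and 185189. It was within the scanner error of wildtype in Pcgf6KO (-0.10, with a positive sign under quantile normalization and without scaling) and highest on the third array, by 0.47 over Pcgf6KO and 0.37 over wildtype. The first of these was 0.18 with quantile normalization and 0.64 with normexp. Sall4, a zinc finger factor that supports Pou5f1 expression, had levels of 2.98, 2.65 and 2.69 on its brightest probe, a difference of -0.33 in Pcgf6KO. Its other probes differed there by -0.03 and 0.06, so the lower Sall4 level was seen on 1 of 3 probes. In the values as reported 0 of the 4 core genes reached 1.5-fold in any comparison, while Nanog on the third array did so against Pcgf6KO with normexp and against wildtype (0.61) without scaling. For Pcgf6KO against wildtype 11.7% of all genes were at least 1.5-fold higher and 7.53% lower. The shares were 12.7% and 14.9% for the third array against Pcgf6KO, and 10.9% and 10.9% against wildtype. A count of 0 in 4 thus says nothing particular about the core genes.

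The members that passed 2-fold in any comparison, Gbx2, Prdm14 and Tcl1, were all naive factors, which are 13 of the 30 genes. So few genes say nothing particular about that role. Gbx2, a homeobox gene downstream of LIF and Stat3, had processed signals of 25081 in wildtype, 10968 in Pcgf6KO and 13918 on the third array, or levels of 2.68, 1.35 and 1.59. Its wildtype level was high and the other arrays lay close together. The difference in Pcgf6KO was -1.33 (2.51-fold), beside a scanner error of 0.20, and lay at percentile 1.53 of the differences of all genes. On the third array it was -1.09 from wildtype and 0.24 from Pcgf6KO. The difference in Pcgf6KO ranged from -1.36 to -1.19 and was past 2-fold under all 10 alternatives that recompute it, whereas that on the third array was -0.97 with normexp background correction and -0.85 without scaling. A single probe reads Gbx2.

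Prdm14, a PR-domain protein that restrains FGF signalling and de novo DNA methylation, went against the list. Its signals were 1372, 2463 and 5121, giving levels of -1.51, -0.80 and 0.15. Each array was thus higher than the one before in the order wildtype, Pcgf6KO and the third array, and the steps were 0.71 and 0.95. The third array was 1.66 (3.16-fold) above wildtype, at percentile 98.69 of all genes. Prdm14 is the only member below the median signal. In that comparison 4.91% of all genes but 0.735% of the bright ones were at least 2-fold higher. Tcl1, which encodes a coactivator of the kinase Akt, had signals of 7778, 10318 and 20305. Its levels of 0.99, 1.27 and 2.14 gave differences of 0.28 in Pcgf6KO, 0.87 from Pcgf6KO to the third array and 1.15 (2.21-fold) from wildtype to the third array. Prdm14 and Tcl1 were each read by 1 probe.

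The Krüppel-like factors, zinc finger proteins with overlapping targets, did not share a direction in Pcgf6KO. Klf2 had levels of 3.34, 3.08 and 3.82, Klf5 of 3.48, 3.11 and 3.22, and Klf4 of 1.24, 1.53 and 1.44. In Pcgf6KO this gave -0.26 for Klf2, -0.37 for Klf5 and 0.29 for Klf4, signs that were kept under all alternatives run. Klf2 was highest on the third array, 0.74 above Pcgf6KO, and the other pair differed from Pcgf6KO there by 0.11 for Klf5 and -0.09 for Klf4.

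A set of nuclear receptors and partners had its lowest level in Pcgf6KO. Esrrb, the orphan receptor that can replace Nanog in several settings, had levels of 3.23, 2.99 and 3.57. Nr5a2 (Lrh1), which binds the Pou5f1 regulatory region, had 2.01, 1.62 and 2.28. Tfcp2l1, a CP2-family factor induced by LIF, had 1.98, 1.62 and 2.41. For each of these 3 genes the third array was the highest, by 0.58, 0.66 and 0.79 over Pcgf6KO in that order. Their differences between Pcgf6KO and wildtype were smaller, at -0.24, -0.39 and -0.36, with ranges over the alternatives of -0.38 to -0.11, -0.46 to -0.26 and -0.41 to -0.23.

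Nr0b1 (Dax1), an atypical nuclear receptor that binds Oct4, is printed repeatedly on the array and so shows the spread of spots. In wildtype its 10 spots ran from a level of 3.23 through a median of 3.36 to 3.40. In Pcgf6KO 10 spots ran from 2.58 through 2.65 to 2.80, and on the third array 9 spots ran from 3.21 through 3.31 to 3.33. The Pcgf6KO spots lay below every spot of the other arrays, and the spots of the other arrays overlapped. Averaged over spots, the difference was -0.68 in Pcgf6KO against wildtype, 0.64 from Pcgf6KO to the third array and -0.05 between the third array and wildtype. Spots of 1 hybridisation share 1 RNA sample, so their spread leaves out the culture.

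**Figure D2:**
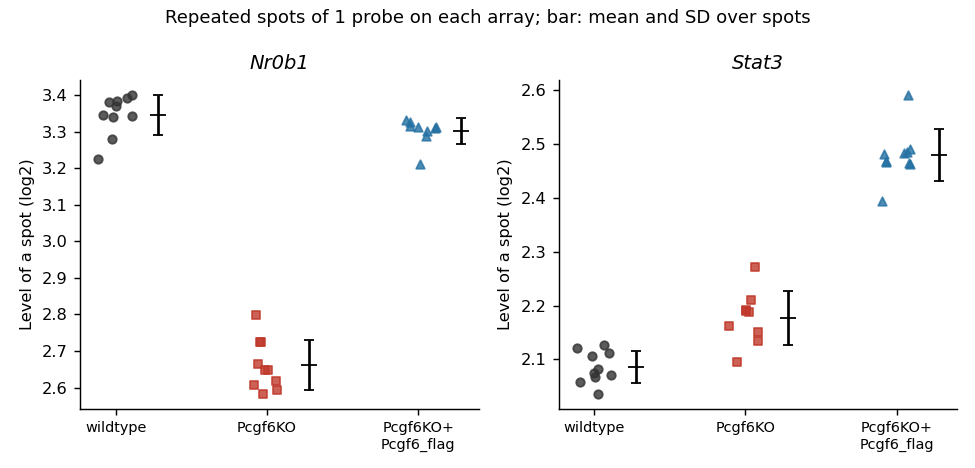
Levels of repeated spots (log2, vertical axis; 9 or 10 kept spots an array) of the Nr0b1 and Stat3 probes on each array, with the mean and SD over spots as a bar. The Nr0b1 spots of Pcgf6KO, 2.58 to 2.80, lie apart from those of the other arrays, and for Stat3 the third array, 2.39 to 2.59, lies above both others.

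The remaining naive genes were near or above wildtype in Pcgf6KO. Tbx3, a T-box factor of the LIF-responsive circuit, had levels of 0.58, 1.08 and 1.05 and was thus higher by 0.50 in Pcgf6KO and 0.47 on the third array than in wildtype. Dppa3 (Stella), a maternal factor that protects methylation in the zygote, had 2.17, 2.31 and 2.56. Zfp42 (Rex1), the classical marker of the naive state, had 1.77, 1.78 and 1.70, with differences of 0.01, -0.07 and -0.07 in the 3 comparisons.

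Over the 13 naive genes the median difference was -0.24 in Pcgf6KO, 0.58 from Pcgf6KO to the third array and 0.34 between the third array and wildtype. These comparisons share arrays, so they are not independent of each other. The median kept its sign under each alternative run, with ranges of -0.29 to -0.11, 0.42 to 0.69 and 0.21 to 0.58.

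Promoter sequence is shown for 6 genes: Gbx2 and Tcl1, which passed 2-fold and have an entry, Klf4, the other member with an E-box, Nr0b1, whose spots separated, and Zfp42 and Zscan10, which carry letters bound by factors of the network itself. RefSeq promoter entries on GRCm38.p6 existed for 20 of the 30 genes, and the 250 bases before the transcript start were used, 5′ to 3′ on the strand of the gene. Capitals mark exact matches on either strand to any of 6 motifs: CACGTG, the E-box that Mga and Max recognise; GCGGGAA, an E2F site; ATGCAAAT, the octamer of Oct4; TCAAGGTCA, the Esrrb element; GGGTGTGG, a Klf site; and TTCCNGGAA, the STAT element.
Gbx2 (chr1:89931177-89931426, minus strand): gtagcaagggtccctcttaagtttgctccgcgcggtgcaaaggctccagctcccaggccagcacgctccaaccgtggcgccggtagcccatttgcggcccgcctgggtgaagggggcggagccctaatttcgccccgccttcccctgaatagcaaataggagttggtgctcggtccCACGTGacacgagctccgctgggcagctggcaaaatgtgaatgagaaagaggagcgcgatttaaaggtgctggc
Klf4 (chr4:55532476-55532725, minus strand): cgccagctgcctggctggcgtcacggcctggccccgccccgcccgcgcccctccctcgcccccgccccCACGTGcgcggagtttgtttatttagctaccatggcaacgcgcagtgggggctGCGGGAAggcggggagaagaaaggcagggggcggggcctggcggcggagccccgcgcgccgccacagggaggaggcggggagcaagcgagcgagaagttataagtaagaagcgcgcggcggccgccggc
Tcl1 (chr12:105222738-105222987, minus strand): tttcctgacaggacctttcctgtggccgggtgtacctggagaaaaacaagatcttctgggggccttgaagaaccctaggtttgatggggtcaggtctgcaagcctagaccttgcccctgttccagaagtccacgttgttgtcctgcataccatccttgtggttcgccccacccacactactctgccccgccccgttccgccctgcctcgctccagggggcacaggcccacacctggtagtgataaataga
Nr0b1 (chrX:86191525-86191774, plus strand): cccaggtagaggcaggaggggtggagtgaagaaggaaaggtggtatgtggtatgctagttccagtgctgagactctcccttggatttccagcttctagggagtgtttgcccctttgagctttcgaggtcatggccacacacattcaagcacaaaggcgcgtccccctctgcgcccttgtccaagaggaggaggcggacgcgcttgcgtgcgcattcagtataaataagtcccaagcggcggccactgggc
Zfp42 (chr8:43307010-43307259, minus strand): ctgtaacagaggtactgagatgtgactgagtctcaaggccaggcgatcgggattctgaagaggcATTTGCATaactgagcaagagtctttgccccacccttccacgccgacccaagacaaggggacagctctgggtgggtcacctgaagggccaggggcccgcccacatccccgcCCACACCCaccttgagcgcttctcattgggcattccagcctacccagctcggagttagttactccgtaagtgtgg
Zscan10 (chr17:23600576-23600825, plus strand): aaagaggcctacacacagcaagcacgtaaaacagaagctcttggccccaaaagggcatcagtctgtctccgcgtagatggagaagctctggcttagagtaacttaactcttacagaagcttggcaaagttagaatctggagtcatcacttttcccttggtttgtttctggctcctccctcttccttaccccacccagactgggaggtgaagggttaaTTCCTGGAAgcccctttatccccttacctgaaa

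Gbx2 holds the E-box 74 bases before the start, and Klf4 holds one 182 bases before it with an E2F match at 129. They were the only pair among the 20 genes with CACGTG, which occurs in 6.02% of all 32851 windows of this length. Their levels differed in opposite directions in Pcgf6KO, -1.33 for Gbx2 and 0.29 for Klf4. GCGGGAA was found in 3.82% of all windows and in 1 of the 20 genes. Zfp42 was the only 1 of the 20 with the octamer (1.6% of windows) and with the Klf letters (3.2%), and Zscan10 the only 1 with the STAT letters (0.913%). None of the 20 had TCAAGGTCA, which 0.387% of windows hold. Tcl1 and Nr0b1 had no match. No motif overlapped another in the windows shown. Such matches describe letters, not binding, and the motifs were chosen with the levels known.

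Among the signalling members the ligand gene Fgf4 had the largest difference in Pcgf6KO when each gene was read from its brightest probe. Lifr, the LIF receptor, had levels of 2.26, 2.20 and 2.33 on its brightest probe. Its dimmer probes did not follow, with differences in Pcgf6KO of 0.36 and, on the probe for accession NM_001113386, 0.67. No direction is therefore given for Lifr.

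Stat3, the transcription factor that LIF activates, was read by repeated spots as well. Its wildtype spots ran from 2.04 through 2.08 to 2.13, the Pcgf6KO spots from 2.10 through 2.19 to 2.27 and those of the third array from 2.39 through 2.48 to 2.59. Wildtype and Pcgf6KO spots overlapped, and the third array lay above both. The differences of the spot means were 0.09 in Pcgf6KO and 0.39 on the third array against wildtype, and the second probe gave 0.27 and 0.52.

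Tdgf1 (Cripto), the coreceptor of Nodal, had levels of 4.29, 4.05 and 3.99, and its 3 probes differed in Pcgf6KO by -0.25, -0.05 and 0.01. Fgf4, the ligand that drives ERK signalling in these cells, had 3.69, 3.17 and 3.67, with signals of 50571, 38765 and 58646. It was lower by -0.52 in Pcgf6KO and differed by -0.02 between the third array and wildtype. Gdf3, a ligand of the TGF-beta family, had 2.96, 2.79 and 2.89, differences no larger than the scanner error, whereas its dimmer probe differed by -0.37 in Pcgf6KO.

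Of the other stem cell genes, Rex2 and Zscan10 had the largest differences in Pcgf6KO. Rex2, a zinc finger gene with close relatives whose transcripts its probes may share, had levels of 3.91, 3.18 and 3.74. The difference in Pcgf6KO was -0.73 on the brighter probe and -0.50 on the other. Zscan10, a zinc finger factor of the stem cell state, had 2.73, 2.22 and 2.71 and a difference of -0.52, with -0.48 on its second probe. Both had their lowest level in Pcgf6KO, 0.55 for Rex2 and 0.49 for Zscan10 below the third array. The distance to the third array was only 0.07 for Rex2 with normexp, and for Zscan10 it was 0.06 on the second probe and 0.28 as a mean over probes.

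Dppa2 and Dppa4, partners with SAP domains that prime genes for activation, had signals of 31416, 27238 and 30286, and of 33847, 29509 and 35570. Their differences in Pcgf6KO were -0.34 and -0.33, with the same sign on all of their probes. Utf1, a chromatin-bound factor of undifferentiated cells, had 3.74, 3.46 and 3.47. On their brightest probes all 3 genes were lower in Pcgf6KO by more than the scanner error and by less than 1.5-fold, while the dimmest Dppa4 probe differed by -0.71.

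Lin28a, which blocks let-7 maturation, had 2.93, 2.86 and 2.80, and Dppa5a, an RNA-binding protein, had signals of 62646, 73216 and 72394. Fbxo15, an F-box gene bound by Oct4 and Sox2, had levels of 3.05, 3.11 and 3.24. No difference of these 3 genes exceeded the scanner error in any comparison. Several members, among them Pou5f1, Nanog, Dppa3 and Dppa5a, have pseudogenes whose transcripts a probe may also read.

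**Figure D3:**
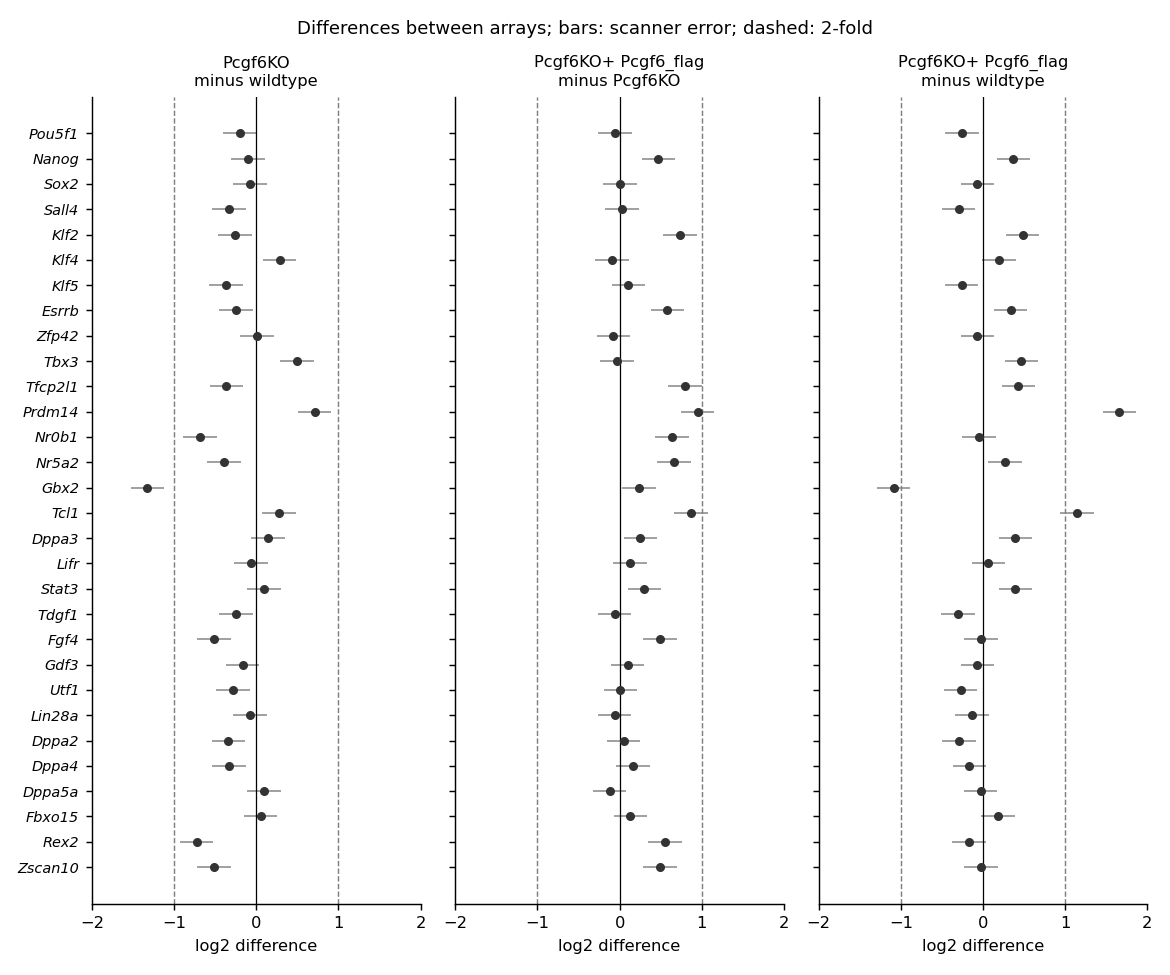
Difference of each gene (log2, horizontal axis) in the 3 comparisons, with the scanner error of a difference (0.20) as a bar and dashed lines at 2-fold; 1 array a group. In Pcgf6KO minus wildtype Gbx2 alone passes a dashed line, in the middle panel none does, and against wildtype the third array has Prdm14 and Tcl1 above and Gbx2 below.

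Members that went against the list median in Pcgf6KO numbered 9: Prdm14 (0.71), Tbx3 (0.50), Klf4 (0.29), Tcl1 (0.28), Dppa3 (0.14), Dppa5a (0.09), Stat3 (0.09), Fbxo15 (0.05) and Zfp42 (0.01). The sign was kept under each alternative for 8 of them, and Zfp42 changed sign when arrays were scaled to the median. On a 1.5-fold rule, 3 members were lower in Pcgf6KO, namely Gbx2, Rex2 and Nr0b1, beside 7.53% of all genes. Prdm14 was the 1 member higher by that rule, beside 11.7%.

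The second comparison sets the array labelled Pcgf6KO+ Pcgf6_flag against Pcgf6KO. Of the members 0 were at least 2-fold higher and 0 lower, while 5.43% of 14241 genes were higher and 8.36% lower, or 1.11% and 1.79% of the bright genes. Prdm14 with 0.95 and Tcl1 with 0.87 came closest. The member median was 0.15, beside 0.03 over all genes and 0.05 over bright ones, and 7 members were below 0, beside 47.5% of all genes and 42.9% of the bright ones. By the 1.5-fold rule 6 members were higher and 0 lower, beside 12.7% and 14.9% of all genes. The 6 were Prdm14, Tcl1, Tfcp2l1, Klf2, Nr5a2 and Nr0b1, all naive factors, and the second Nr5a2 probe gave 1.28. Which members passed depended on the processing: with normexp Klf2 was at 0.45, below 1.5-fold, and the core factor Nanog at 0.64, above it. Over the core genes the median was 0.02 and changed sign between alternatives (-0.08 to 0.12).

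The third comparison sets that array against wildtype. Prdm14 and Tcl1 were at least 2-fold higher and Gbx2 at least 2-fold lower, 2 and 1 of 30 genes, beside 4.91% and 4.81% of 14193 genes and 0.735% and 1.21% of the bright ones. The member median was -0.03, beside -0.02 over all genes, and 17 members were below 0, beside 52% of all genes and 53.7% of the bright ones. This median changed sign with normexp background correction and without scaling. By role, the core genes had a median of -0.16, the naive factors 0.34, the signalling members -0.02 and the other stem cell genes -0.15. Of these only the naive median kept its sign under all alternatives run.

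**Figure D4:**
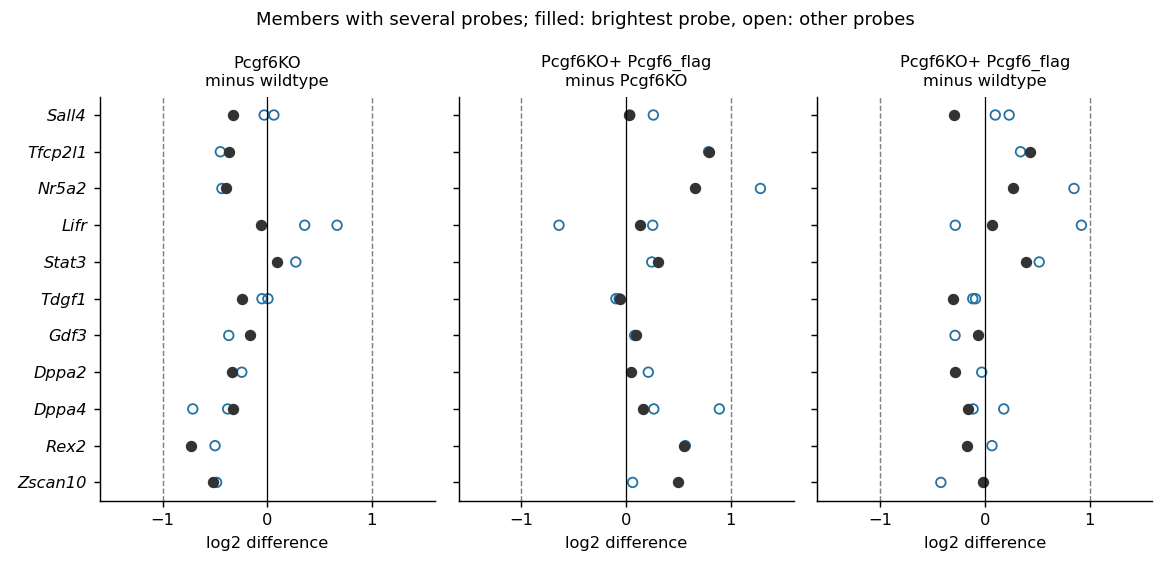
Differences (log2, horizontal axis) of each probe of the 11 members with several probes, in the 3 comparisons; filled circles are the brightest probe, open circles the others, dashed lines 2-fold. All probes of a gene shared a sign in 8 of 11 genes for Pcgf6KO minus wildtype, while those of Lifr, Sall4 and Tdgf1 did not.

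For 19 members there was 1 probe and for 11 there were several. The probes of a gene had 1 sign in 8 of 11 genes when Pcgf6KO was set against wildtype, in 10 of 11 for the third array against Pcgf6KO and in 7 of 11 for the third array against wildtype. Lifr was mixed in each comparison. In the first comparison Sall4 and Tdgf1 were mixed too, and in the last Sall4, Dppa4 and Rex2.

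A further list of 30 genes tied to pluripotency held 29 that could be read. Its median was -0.11 in Pcgf6KO and 0.16 from Pcgf6KO to the third array, beside -0.22 and 0.15 for the members; the first changed sign between alternatives (-0.23 to 0.03). In Pcgf6KO 1 gene was at least 2-fold higher and 0 lower: Fut4, a fucosyltransferase gene, by 1.77. Fut4 was not well above background on the third array and was there at least 9.87-fold lower than in Pcgf6KO. Tet2, a 5-methylcytosine dioxygenase, had levels of 1.94, 1.14 and 2.33 and was the only gene of this list at least 2-fold higher on the third array than in Pcgf6KO, by 1.18, while its difference in Pcgf6KO against wildtype was -0.80.

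Signalling around the members was read from lists of LIF, FGF-ERK, Nodal-Activin, BMP and Wnt genes. In Pcgf6KO against wildtype 0 of 13 LIF genes, 0 of 18 FGF-ERK genes and 0 of 15 Nodal-Activin genes measured passed 2-fold in either direction. Of all genes 5.79% were at least 2-fold higher and 2.81% lower, or 0.81% and 0.648% of the bright ones. A count of 0 in lists of this size thus says nothing particular about these pathways. Il6st, the coreceptor gp130 that pairs with Lifr, differed by 0.19, and Socs3, the feedback inhibitor that Stat3 induces, by -0.02. Other LIF genes differed by more than 1.5-fold in both directions: Gab1 (-0.88) and Tyk2 (-0.85) were lower, Stat5a (0.75) and Socs1 (0.69) higher. Of all genes 7.53% were at least 1.5-fold lower and 11.7% higher. Tyk2, Stat5a and Socs1 lie outside the 7 LIF genes at or above the median signal. On the third array Pim1, a kinase gene induced by Stat3, was lower by -1.06 than in wildtype. Of the FGF-ERK list, the third array held Egr1, an immediate early gene of ERK signalling, 1.22 higher and the ERK inhibitor gene Spred1 -1.07 lower than Pcgf6KO. In that comparison 8 of the 18 genes lay below 0 and 10 above, with a median of 0.06. Among the others Spry1 differed by -0.54, Dusp6 by -0.22 and Etv4 by 0.34.

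The BMP list, whose Id proteins act with LIF in serum to hold off neural differentiation, had a median of 0.49 in Pcgf6KO and all 10 measured genes above 0. Over all genes the median was -0.03 and 53.1% lay below 0. At least 2-fold higher in Pcgf6KO than in wildtype were the ligand gene Bmp2 by 1.69, Id4 by 1.25 and the type II receptor gene Bmpr2, which had levels of -3.19 and -2.18. This held for 5.79% of all genes and 0.81% of the bright ones. All 3 lie outside the 5 BMP genes at or above the median signal, whose median in Pcgf6KO was 0.35, beside -0.07 over all bright genes. The ligand gene Bmp4 differed by 0.10, Id1 by 0.35 and Id2 by 0.53. From Pcgf6KO to the third array the median was -0.67, with Bmp2 at -2.58 and Bmpr2 at -1.17. Over the 5 BMP genes at or above the median signal it was -0.38, and Bmp2 and Bmpr2 are not among them. The list medians of 0.49 and -0.67 kept their sign under all alternatives run.

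Of 16 Wnt genes, Wnt3, a ligand gene of the epiblast and primitive streak, was higher by 2.02 and Lef1, a nuclear partner of beta-catenin, lower by -1.05 in Pcgf6KO. The list median was 0.07, and 5.79% of all genes were at least 2-fold higher and 2.81% lower, or 0.81% and 0.648% of the bright ones. Wnt3, the Wnt target Sp5 and the feedback gene Axin2 were lower by -3.16, -1.85 and -1.36 on the third array than in Pcgf6KO. There the list median was 0.04, and 8.36% of all genes were at least 2-fold lower, or 1.79% of the bright ones. Wnt3, Lef1, Sp5 and Axin2 lie outside the 9 Wnt genes at or above the median signal, whose medians were -0.06 and 0.12 in these comparisons. Ctnnb1, which encodes beta-catenin, and Tcf7l1, the repressor it displaces at pluripotency genes, differed in Pcgf6KO by -0.06 and -0.01.

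Markers of other states were read beside the members. Of 11 primed epiblast genes measured, Fgf5 was higher by 1.85 and Brachyury, encoded by T, by 1.07 in Pcgf6KO, and 0 were at least 2-fold lower, with a list median of 0.14. In that comparison 5.79% of all genes were at least 2-fold higher and 2.81% lower, or 0.81% and 0.648% of the bright ones. Fgf5 and T, with wildtype signals of 375.3 and 999.7, lie outside the 5 genes of the list at or above the median signal. Sox3, also expressed in neural progenitors, had levels of 1.03, 0.05 and -1.54. Otx2, the factor that leads cells out of the naive state, differed by 0.46 and Dnmt3b by -0.35. In the same comparison the median was 0.52 for 8 trophoblast genes (Hand1 1.48, Krt8 1.13), -0.18 for 9 endoderm genes and -0.15 for 7 neural genes (Sox1 -2.27), the last changing sign between alternatives (-0.19 to 0.07). Of the endoderm genes 7 lay below 0, among them Gata4 (-0.86), Foxa2 (-0.79) and Sox17 (-0.52), while Afp (2.69) and Dab2 (1.26) were at least 2-fold higher. The wildtype Afp signal was 75.4, near 52.7, the lowest signal well above background on that array. Cdx2, a trophectoderm factor, was lower by -2.82 on the third array than in Pcgf6KO.

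**Figure D5:**
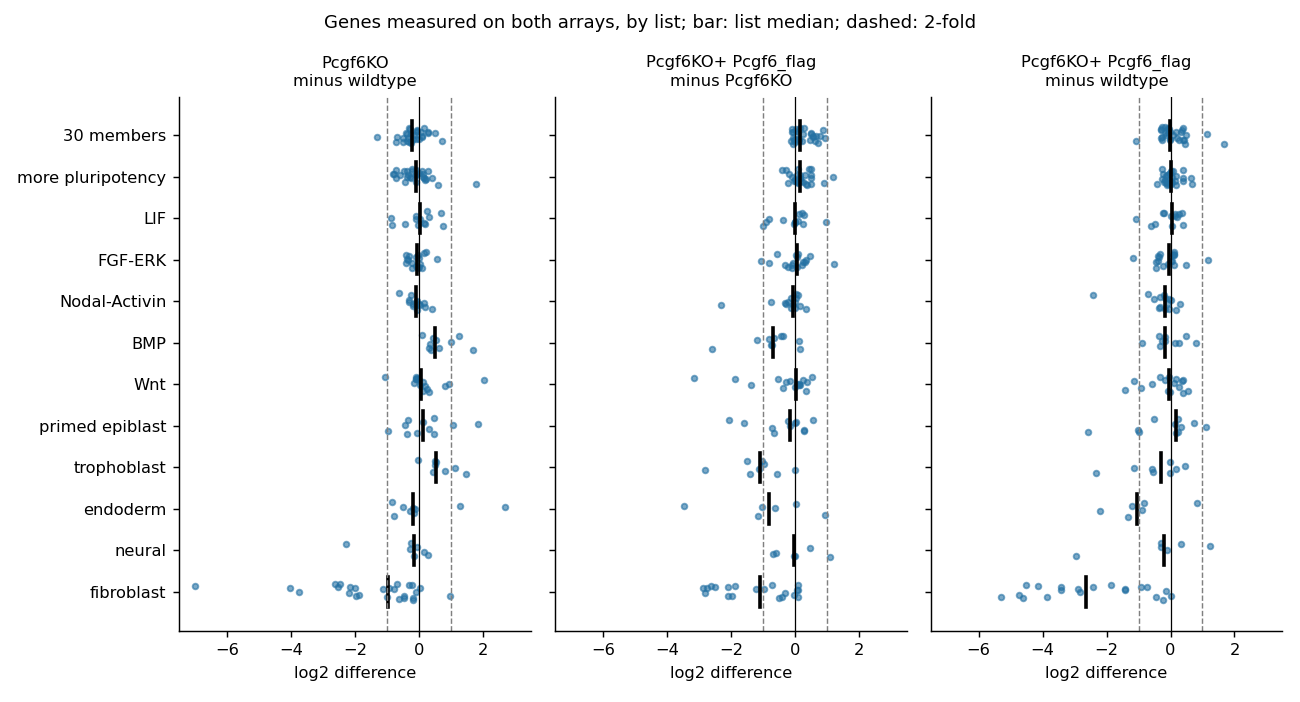
Differences (log2, horizontal axis) of the genes measured on both arrays in each comparison, by list, with the list median as a bar and dashed lines at 2-fold; 1 array a group. In Pcgf6KO minus wildtype the 30 members centre at -0.22, the BMP genes at 0.49 and the fibroblast markers at -0.97.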

How the data were processed

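RNA extracted with TRIzol was amplified and labelled with Cy3, per the labels' protocols. Per the file headers, the deposited intensity of each spot is linear and background-subtracted by Agilent Feature Extraction 11.5.1.1 (10.7 per the submitters' processing notes). The deposited value table held the same intensity for 55249 of 55249 single-spot probes within 1e-06, with column medians of 243, 273 and 313.

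Controls and outlier spots (141, 158 and 192) were removed, 0 were saturated, spots of a probe were averaged, and log2 was taken relative to the 75th percentile. Well above background on most kept spots were 65.3%, 66.0% and 60.7% of probes. Names came from unversioned accessions in a RefSeq table of GRCm38.p6 (26746 of 55647 probes); gene coordinates were not used, since the design is annotated on mm9. The brightest measured probe stood for a gene. A bound ("at least N-fold") sets a dim array at its lowest signal well above background or, if higher, at the dim probe itself.

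Members, lists, motifs and rules were chosen with earlier results of these data known. All members are named, and of other lists up to 4 genes past 2-fold, plus some chosen after their values were seen. A gene that this rule selects is not reported here. The 2-fold call was run on simulated data with noise of the size seen between repeated spots. That checks the calculation only, since it leaves out the variation between cultures and arrays. The alternatives were normexp (limma 3.58.1, offset 50, median spot signal, since the mean is not among the columns used), quantile normalization, other scalings, the deposited table, other filters on dim probes, the mean over probes, outliers kept, thresholds of 1.5-fold and 3-fold and, added after seeing data, the table unscaled. Python 3.11.15, numpy 2.4.6, pandas 2.3.3, matplotlib 3.10.9 and R 4.3.3 were used.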

Additional observations from a re-analysis of the deposited data

How the results depend on the processing

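For Pcgf6KO against wildtype, the 0 members at least 2-fold higher became 1 and the 1 lower became 3 at 1.5-fold, and 0 were lower at 3-fold. The median of -0.22 was -0.11 with quantile normalization and -0.0884 without scaling. For the third array against Pcgf6KO, the 0 members higher became 1 with normexp (Tcl1, 1.01) and 1 without scaling (Prdm14, 1.06), and 6 at 1.5-fold. The median of 0.15 was 0.0583 with quantile normalization, 0.0590 with scaling to the median and 0.25 without scaling. For the third array against wildtype, the 2 higher members became 1 among bright genes, which leave out Prdm14, and 1 at 3-fold. The 1 lower member, Gbx2, became 0 with normexp, 0 at 3-fold and 0 without scaling. The median of -0.03 was 0.0781 with normexp, -0.15 with scaling to the median and 0.21 without scaling. Without scaling the median of all genes shifted to 0.11, 0.13 and 0.22 in the 3 comparisons, which accounts for the shift of the unscaled values, and the share of higher genes among those past 2-fold was 77.7%, 47.2% and 70.5%, beside 67.3%, 39.3% and 50.5% for the same table scaled. Scaling to the median moved the last share to 39.1% and that comparison's median of all genes to -0.14. For the other changes the cause was not tested. Of 30 members, 25, 18 and 18 kept their sign under all alternatives run in the 3 comparisons, in the order above. No member past 2-fold changed sign. A fit with slide as a block could not be made, since slide 2 has a single array. No paired analysis was possible because each group has 1 array. Differences below about 0.20 lie within the scanner error. All member probes were well above background, but the part of signal over background in their differences was not tested.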
